A study of Mus musculus with 21 samples.

Results

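Mouse embryonic stem cell cultures kept with vitamin B6 were set against cultures kept with vehicle at day 7, the last of the 3 times sampled. The comparison was chosen by the day and treatment named in the labels and uses 6 of the 21 RNA sequencing libraries of the study, 3 with vitamin B6 and 3 with vehicle. All 6 came from E14, a mouse embryonic stem cell line, and the labels name no genetic change in either group. The VB6 group had received 20 µM pyridoxine, a form of vitamin B6, for 7 days, and its controls had received the vehicle for the same 7 days. The other libraries are VB6 and vehicle cultures at days 3 and 5 and untreated stem cells in standard culture (ES), again 3 a group. The question named in the title of the series is a role of vitamin B6 in endoderm formation by way of glycolysis and lactylation of histone H3. The labels do not say how differentiation was started or whether replicates are separate cultures, so p-values measure only the spread between these libraries.

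Pyridoxine is taken up by cells and turned by pyridoxal kinase and later steps into pyridoxal phosphate, the cofactor of many enzymes of amino acid metabolism. Embryonic stem cells that leave the pluripotent state can form the 3 germ layers as well as extraembryonic endoderm, which lines the yolk sac. Visceral endoderm of the yolk sac secretes many of the proteins that the liver makes later, such as alpha-fetoprotein and apolipoproteins, and parietal endoderm lays down a thick basement membrane of laminin, type IV collagen and nidogen.

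Total expected counts ran from 16455176 to 18524035 in the VB6 libraries and from 17042446 to 17975325 in the vehicle libraries at day 7. Levels are given as CPM, counts scaled to a common library size by TMM, with an error that is the SD over 3 libraries. The pluripotency factors Pou5f1 and Nanog were far below their ES levels in both groups. Pou5f1 averaged 43.8 ± 4.40 CPM in VB6 libraries and 76.2 ± 9.33 CPM in vehicle libraries, beside a mean of 1161 CPM in ES libraries. Nanog averaged 49.1 ± 8.73 CPM in VB6 libraries and 50.01 ± 2.32 CPM in vehicle libraries, beside 309 CPM in ES libraries. The label "embryonic stem cells" therefore names the line of these cultures. A chi-square comparison of the counts of each pair of replicates gave 3.30 to 7.10 a gene, above sampling noise, so no library was a copy of another.

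The VB6 libraries at day 7 also differed from their controls in library properties, and these values stand beside every result below. The fragment length implied by the deposited effective lengths was 263, 260.1 and 275 nt in VB6 libraries and 314, 303 and 306 nt in vehicle libraries. The ribosomal protein share of counts was 3.39, 3.16 and 3.33% in VB6 libraries and 5.25, 5.93 and 5.67% in vehicle libraries. Mitochondrially encoded genes took 3.36, 3.39 and 2.92% of counts in VB6 libraries and 1.88, 2.17 and 2.21% in vehicle libraries. The mean GC content of counts was 48.5% ± 0.174 in VB6 libraries and 49.4% ± 0.231 in vehicle libraries (SD, n = 3 each). No library overlapped the other group in any of these 4 properties. Each difference had a p of 0.1 in an exact two-sided permutation test, the smallest that 3 against 3 allows. Of the other groups, vehicle at day 5 had still shorter fragments (227 ± 8.69 nt) and a similar ribosomal protein share (3.38% ± 0.158), while the remaining groups had mean fragment lengths of 307 to 312 nt. Library properties and vitamin B6 cannot be told apart at day 7, since each VB6 library had short fragments and no vehicle library did.

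**Figure D1:**
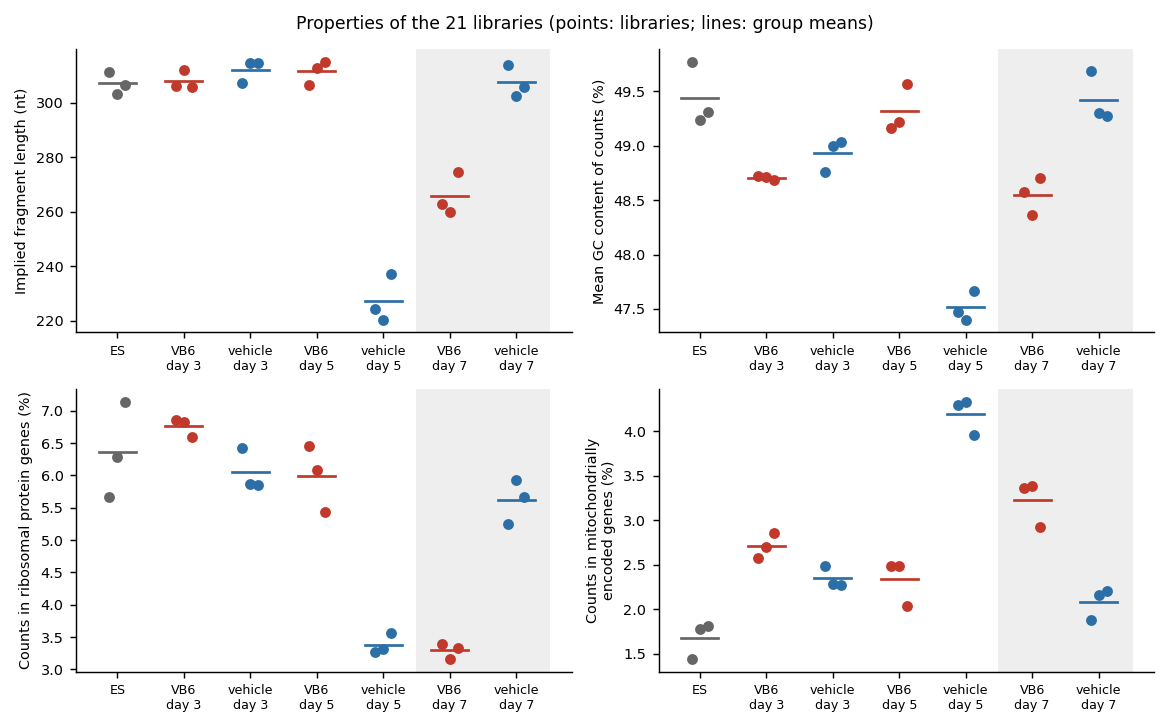
Implied fragment length (nt), mean GC content (%), and share of counts (%) in ribosomal protein and mitochondrially encoded genes for each of the 21 libraries, by group, with day 7 shaded. Points are libraries and lines are means of 3. VB6 at day 7 (263, 260.1 and 275 nt) and vehicle at day 5 (mean 227 nt) lie apart from the other groups in fragment length.

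VB6 and vehicle cultures at day 7 were compared with edgeR's quasi-likelihood test over 18901 genes, and a gene is called when its Benjamini-Hochberg adjusted p is under 0.05. Of these genes 6899 were called, 36.5% of those tested, with 3524 higher (18.6%) and 3375 lower (17.9%) in VB6 cultures. The median log2 fold change over all genes was 0.01. Fold changes followed gene length and GC content. With genes ranked in 10 bins of equal size, the median log2 fold change was -0.37 in the bin of shortest genes and 0.22 in that of the longest. It was 0.34 in the bin poorest in GC and -0.39 in the richest. A second fit that removes a smooth trend over GC content and length from each library left medians of at most 0.05 in the bins of length and between -0.01 and 0.03 in the bins of GC content. Medians near 0 follow from that fit, which uses the same data, and do not test it. Any effect of vitamin B6 that runs with length or GC content would be removed too. This corrected fit called 4517 of 17408 genes (25.9%), 2197 higher (12.6%) and 2320 lower (13.3%). Of the genes called higher without correction 1346 were higher in both fits and 2022 lost the call, and of those called lower 1702 were lower in both fits and 1541 lost it. Log2 fold changes at day 7 are therefore given without and with the correction, the value without it first.

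**Figure D2:**
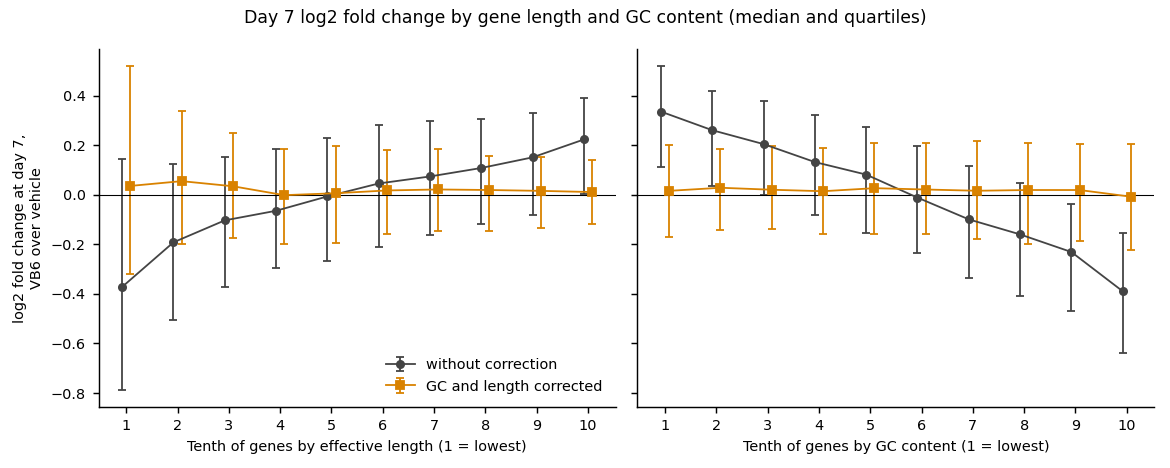
Median log2 fold change of VB6 over vehicle at day 7 (y axis) in 10 bins of genes by effective length (left) and GC content (right), with bars for the quartiles. Without correction (circles) the medians run from -0.37 to 0.22 with length and from 0.34 to -0.39 with GC content. With the correction (squares) they lie near 0, as the fit sets them.

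Scale mattered as well. On log2(TPM + 1), a per-length scale, limma called 8184 genes (43.3%), 6787 higher (35.9%) and 1397 lower (7.39%). Of these calls 82.9% were higher in VB6 cultures, against 51.1% of the calls without correction on CPM. The median of all genes moved to 0.19 on that scale, so medians on TPM are given below relative to it, and the calls of the definitive endoderm, pluripotency, Nodal, BMP, FGF feedback, glycolysis, histone lactylation, pyridoxal phosphate enzyme and ribosome biogenesis lists lean the other way on TPM. So do those of the trophoblast, cell cycle and heat shock lists.

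Genes of primitive and parietal endoderm, among them basement membrane genes, were higher where called in VB6 cultures. Of the 15 genes of the primitive and parietal endoderm list, all tested, 9 were called higher and 0 lower, with a median log2 fold change of 0.40 beside 0.01 over all genes. With the correction 12 were higher and 0 lower (median 0.37). The shares called were 60% and, with the correction, 80%, beside 36.5% and 25.9% over all genes. On TPM 14 were higher and 0 lower, with a median 0.42 above that of all genes. Nid1, which encodes nidogen, the linker between laminin and type IV collagen, had 151, 157 and 144 CPM in VB6 libraries, against 94.3, 87.1 and 109 CPM in vehicle libraries. The groups did not overlap, as in 45.3% of all genes tested, and the log2 fold change was 0.64 ± 0.07 (SE; adjusted p = 1.77e-07, edgeR) or 0.53 ± 0.06 with the correction. Lama1, the laminin alpha chain of early basement membranes, had 711, 659 and 607 CPM in VB6 libraries, against 470.2, 420.2 and 467 CPM in vehicle libraries. All 3 VB6 libraries lay above all vehicle libraries, a 1.46-fold difference in means (log2 0.54 ± 0.09, adjusted p = 4.26e-05; corrected 0.56 ± 0.07). Its partner chains in laminin-111, Lamb1 and Lamc1, were also called higher, with log2 fold changes of 0.40 and 0.48 (0.32 and 0.40 corrected). Pdgfra, a receptor found on primitive endoderm, had 140.1, 131 and 121 CPM in VB6 libraries, against 87.3, 89.2 and 94.4 CPM in vehicle libraries. The groups again did not overlap (log2 0.53 ± 0.09, adjusted p = 8.44e-05; corrected 0.37 ± 0.08). Sox7, a transcription factor of parietal endoderm, was called in both fits at 0.60 and 0.59. The type IV collagen genes were called in the corrected fit alone, at 0.31 for Col4a1 and 0.25 for Col4a2, beside 0.20 and 0.00 without it, and they lost that call without VB6 replicate 1 (0.24 and 0.17). In bulk RNA, more cells of a type and more RNA per cell cannot be told apart.

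Secreted proteins of visceral endoderm and liver were called in both directions without the correction and only higher with it. Of 17 tested members (of 20), 6 were called higher and 3 lower (median 0.32), whereas with the correction 9 were higher and 0 lower (median 0.35). The share called was 52.9% in either fit, beside 36.5% of all genes and 25.9% with the correction. Relative to all genes the median on TPM was 0.24. Apob, the large apolipoprotein of lipid export, had 2837, 2599 and 2329 CPM in VB6 libraries, against 1477, 1671 and 1532 CPM in vehicle libraries. The groups were far apart, by 1.66-fold in the means (log2 0.73 ± 0.09, adjusted p = 2.69e-06; corrected 0.41 ± 0.08, adjusted p = 3.76e-04). Afp, alpha-fetoprotein, had 1738, 1316 and 1261 CPM in VB6 libraries, against 1089, 1076 and 1074 CPM in vehicle libraries. The VB6 libraries were all higher but spread widely, and the log2 fold change was 0.41 ± 0.11 (adjusted p = 0.00631) or 0.27 ± 0.10 with the correction (adjusted p = 0.0470). This call rested on 1 library, since without VB6 replicate 1 the log2 value was 0.26 (adjusted p = 0.0735, edgeR). With the correction it was lost without that library (0.10) or without any 1 vehicle library (0.26 to 0.29). Apoa1 and Apoe had the other sign before correction. Apoa1, the main protein of high-density lipoprotein, had 131, 97.8 and 116 CPM in VB6 libraries, against 164, 153 and 135 CPM in vehicle libraries. It was called lower at log2 -0.39 ± 0.10, and was not called with the correction (0.06 ± 0.08). Apoe was called lower without the correction (-0.43) and higher with it (0.25), but in the corrected fit not without VB6 replicate 1 (0.12) or vehicle replicate 3 (0.18). The fibrinogen chain gene Fga was called higher in both fits (0.53 and 0.48), whereas Fgb (0.43 and 0.19) was called only without the correction. Without VB6 replicate 1 neither was called (0.30 for Fga and 0.21 for Fgb), and Fga also lost its call without vehicle replicate 1 (0.52) or vehicle replicate 3 (0.51). With the correction Fga lost its call without VB6 replicate 1 (0.26) or any 1 vehicle library (0.47 to 0.52). Ttr, which encodes transthyretin, passed neither test, at -0.20 and -0.12, though without VB6 replicate 1 it was called lower in both (-0.31 and -0.22).

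The endocytic machinery with which visceral endoderm takes up nutrients was mostly higher where called. Of 10 genes on that list 5 were called higher and 1 lower, and 4 higher and 1 lower with the correction. Those were shares of 60% and 50%, beside 36.5% and 25.9% over all genes. Cubn, cubilin, a receptor for many ligands, had 1253, 1298 and 1069.7 CPM in VB6 libraries, against 729.5, 838 and 750.0 CPM in vehicle libraries. Those groups did not overlap (log2 0.64 ± 0.10; corrected 0.33 ± 0.08). Dab2, the adaptor of these receptors, was called at 0.43 and 0.24, and Mttp, which loads lipid onto apolipoprotein B, at 0.40 and 0.21. With the correction Mttp lost its call without VB6 replicate 1 (0.09) or vehicle replicate 3 (0.18). Amn, which encodes amnionless, the partner of cubilin, was called lower without the correction (-0.66) and stood at -0.02 with it. Tfrc, the transferrin receptor, was called higher only without the correction (0.30 and -0.08).

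Genes of definitive endoderm showed no common direction. Of 18 tested, 2 were called higher and 3 lower, and 4 higher and 1 lower with the correction, while on TPM 7 were higher and 2 lower. The share called was 27.8% in either edgeR fit, beside 36.5% of all genes and 25.9% with the correction. Their median log2 fold change was -0.02, and 0.12 corrected. Sox17, a defining factor of endoderm, had 32.96, 32.8 and 30.97 CPM in VB6 libraries, against 46.4, 39.3 and 36.9 CPM in vehicle libraries. The vehicle libraries were all higher and the gene was called lower at -0.34 ± 0.11 (adjusted p = 0.0202), but the corrected value was -0.02 ± 0.10 (adjusted p = 0.926), and it lost the call without VB6 replicate 3 (-0.31) or without vehicle replicate 1 (-0.24). Foxa2, the pioneer factor of endoderm, had 32.1, 29.6 and 25.6 CPM in VB6 libraries, against 36.3, 31.8 and 29.3 CPM in vehicle libraries. Its groups overlapped and neither fit called it (-0.16 and 0.14), though without VB6 replicate 3 it was called higher with the correction (0.26). Gata4 and Gata6, which specify primitive endoderm as well as later endoderm, were called higher in the corrected fit alone, at 0.37 and 0.47, beside 0.19 and 0.27 without it. Without VB6 replicate 3 both were called without the correction too (0.27 and 0.37), and Gata4 also without vehicle replicate 1 (0.25). Kit, the stem cell factor receptor, was the member with the smallest p and rose 1.80-fold in means, at log2 0.84 ± 0.08 (corrected 0.63 ± 0.08). Cxcr4, a surface marker of definitive endoderm, stayed below 5 CPM in all 6 libraries and was not called. Among 13 tested genes of gut, pancreas and lung endoderm 1 was called higher, Prox1 at 0.40, which was not called with the correction (0.20), nor without VB6 replicate 2 (0.33), vehicle replicate 1 (0.39) or vehicle replicate 3 (0.36). The 1 call with the correction was Cldn6, a tight junction protein (0.08 and 0.36), so either fit called 7.69% of that list, below the shares of all genes. The albumin gene Alb did not pass the filter on low counts. Genes of the primitive streak, the source of mesoderm and definitive endoderm, had 0 higher and 4 lower of 11 tested, and 1 higher and 2 lower with the correction. The streak shares called, 36.4% and 27.3%, lie near those of all genes. T, the streak factor brachyury, stayed below 7 CPM in all 6 libraries with overlapping groups (0.01 and 0.20, not called), and Eomes was not called either (-0.10 and 0.05). Hand1, a mesoderm and trophoblast factor, was called higher in the corrected fit alone (0.20 and 0.48).

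**Figure D3:**
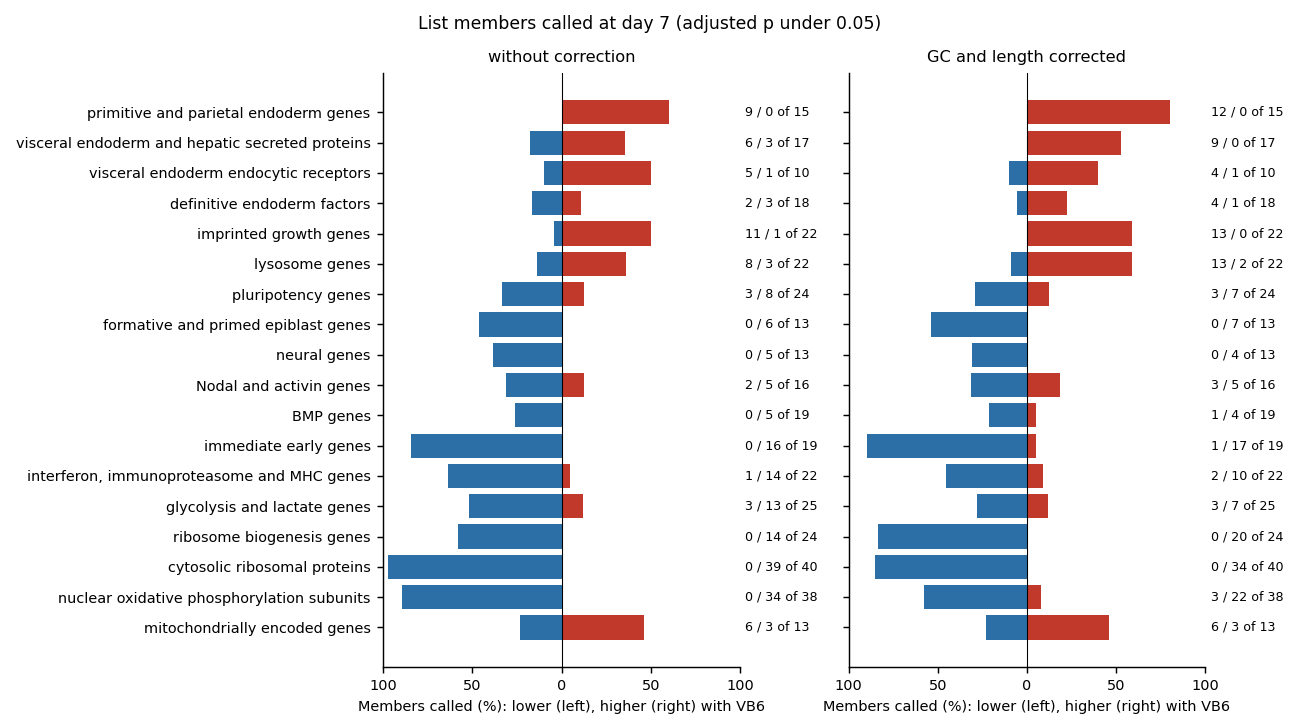
Share of list members called at day 7 (x axis, %), higher in VB6 cultures to the right and lower to the left, without (left panel) and with (right panel) the GC and length correction. Numbers give members higher / lower of those tested. Primitive and parietal endoderm genes (9 / 0 and 12 / 0 of 15) keep one direction in both panels. So do the cytosolic ribosomal protein (0 / 39 and 0 / 34 of 40), ribosome biogenesis, formative epiblast and neural lists. Immediate early genes (0 / 16 of 19 and 1 / 17 of 19) do so except for 1 gene with the correction.

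What remained of the pluripotency programme was uneven between the groups. Of 24 pluripotency genes 3 were called higher and 8 lower in VB6 cultures, and 3 higher and 7 lower with the correction, with medians of -0.08 and -0.01. On TPM this balance reversed, with 10 higher and 5 lower. In the edgeR fits the shares called were 45.8% and, with the correction, 41.7%, beside 36.5% and 25.9% over all genes. Pou5f1 had 38.9, 47.5 and 45.05 CPM in VB6 libraries, against 77.1, 85.04 and 66.4 CPM in vehicle libraries. Every VB6 library was below every vehicle library, by 1.74-fold in means (log2 -0.80 ± 0.08, adjusted p = 2.04e-07; corrected -0.48 ± 0.08, adjusted p = 3.34e-05). Sox2, its partner factor, had 56.9, 66.9 and 77.5 CPM in VB6 libraries, against 119.9, 97.2 and 94.8 CPM in vehicle libraries. Those groups did not overlap either (log2 -0.63 ± 0.11; corrected -0.61 ± 0.09). Klf2 (-1.08 and -0.62) and Dppa5a (-0.87 and -0.45), genes of the naive state, were called lower in both fits. Tfcp2l1, also a factor of naive cells, was called higher in both (0.47 and 0.22), but with the correction not without VB6 replicate 1 (0.17), vehicle replicate 1 (0.19) or vehicle replicate 3 (0.19). Nanog had 40.8, 58.2 and 48.3 CPM in VB6 libraries, against 49.8, 52.4 and 47.8 CPM in vehicle libraries, with overlapping groups and no call (-0.02 and -0.17), though without VB6 replicate 2 it was called lower with the correction (-0.30).

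Genes of the formative and primed epiblast, the stage that follows naive pluripotency, were lower where called. Of 13 tested 0 were higher and 6 lower without the correction, and 0 higher and 7 lower with it, with a median of -0.20 and, relative to all genes on TPM, of -0.11. Fgf5, a growth factor that marks the epiblast after implantation, had 19.04, 26.4 and 26.9 CPM in VB6 libraries, against 36.8, 44.01 and 36.5 CPM in vehicle libraries. The VB6 libraries were all lower (log2 -0.69 ± 0.10, adjusted p = 1.13e-05; corrected -0.74 ± 0.09). Pou3f1, a POU factor of epiblast and neural cells, fell 2.02-fold (log2 -1.02 ± 0.11; corrected -0.55 ± 0.07). Sox3 was called at -1.26 and -0.58. Of 13 neural genes tested 0 were higher and 5 lower, and 0 higher and 4 lower with the correction. The neural shares called, 38.5% and 30.8%, lie near the 36.5% and 25.9% called over all genes, while the epiblast shares were 46.2% and 53.8%. Nes, the intermediate filament of neural progenitors, had 30.3, 37.2 and 39.4 CPM in VB6 libraries, against 68.4, 66.6 and 66.8 CPM in vehicle libraries. The groups did not overlap (log2 -0.92 ± 0.11; corrected -0.83 ± 0.09). Zic2 and Sox1, factors of early neural plate, were called lower in both fits, at -0.66 and -0.65 without and -0.39 and -0.52 with the correction.

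Lists for other cell types the cultures could hold ranged from 0 members called to shares of 42.1%, beside 36.5% and, with the correction, 25.9% over all genes. Blood (0 of 7 tested) and neural crest genes (0 of 8 tested) had no member called in either fit by edgeR. At an unadjusted p under 0.05 there were 0 blood genes and 1 neural crest gene, and limma on TPM called 0 and 4. Blood genes summed to 12.7 to 17.8 CPM in VB6 libraries and 13.1 to 15.5 CPM in vehicle libraries, and Hbb-y, an embryonic globin, had no count. Neural crest genes summed to 63.6 to 80.9 CPM in VB6 libraries and 67.8 to 71.5 CPM in vehicle libraries. Of 9 trophoblast genes tested 0 were higher and 2 lower, and 1 higher and 0 lower with the correction, with sums of 1259 to 1495 CPM in VB6 libraries and 1476 to 1792 CPM in vehicle libraries. The placental hormone genes Prl3d1 and Prl2c2 and the trophoblast gene Tpbpa had no count in any of the 6 libraries. Among 8 endothelial genes 2 were higher and 1 lower (37.5% called), and 2 higher and 0 lower with the correction, and Emcn, an endothelial membrane protein, had no count. Of 10 cardiac muscle genes 2 were called higher in either fit. Among 19 stromal and matricellular genes 6 were higher and 2 lower in either fit (42.1% called), with summed levels of 2589 to 3002 CPM in VB6 libraries and 2446 to 2776 CPM in vehicle libraries. Col1a1, type I collagen, was not called (-0.25 and -0.11), but was called lower without VB6 replicate 3 (-0.44) or vehicle replicate 2 (-0.38). Fn1, fibronectin, was called higher at 0.45 ± 0.07 (corrected 0.44 ± 0.04) and Ccn1, a matricellular protein induced by serum and YAP, lower at -0.69 ± 0.07 (corrected -0.59 ± 0.06). The part of such cells in the results was not tested.

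Immediate early genes were lower in VB6 cultures almost throughout. These are genes that growth factors and stress switch on within minutes through serum response factor and CREB. Of 19 tested (of 20), 0 were called higher and 16 lower in VB6 cultures, with a median log2 fold change of -0.78, and 1 higher and 17 lower with the correction (median -0.58). The shares called were 84.2% and, with the correction, 94.7%, beside 36.5% and 25.9% over all genes. On TPM 1 was higher and 11 lower, and the median was -0.55 relative to all genes. The member higher in the corrected fit was Ier3 (0.10 and 0.48), which lost that call without VB6 replicate 1 (0.42), VB6 replicate 2 (0.35) or vehicle replicate 2 (0.41), and the one with no call in either was Myc (-0.19 and -0.03). Their promoters are shown here because the members moved together. The bases upstream of the transcription start of 3 members follow (RefSeq, build GRCm38.p6, 250 bases up to the start, in the direction of transcription). Capitals mark the cyclic AMP response element TGACGTCA in Btg2 and Dusp1 and a CArG box, the core site of serum response factor (CC, then 6 bases of A or T, then GG), in Zfp36.
Btg2, chr1:134079156-134079405, minus strand: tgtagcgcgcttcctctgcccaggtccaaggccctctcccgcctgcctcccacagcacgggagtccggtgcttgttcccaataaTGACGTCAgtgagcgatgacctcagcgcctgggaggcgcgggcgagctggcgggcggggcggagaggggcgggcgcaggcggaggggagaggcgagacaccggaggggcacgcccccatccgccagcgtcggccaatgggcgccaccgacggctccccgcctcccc
Dusp1, chr17:26508473-26508722, minus strand: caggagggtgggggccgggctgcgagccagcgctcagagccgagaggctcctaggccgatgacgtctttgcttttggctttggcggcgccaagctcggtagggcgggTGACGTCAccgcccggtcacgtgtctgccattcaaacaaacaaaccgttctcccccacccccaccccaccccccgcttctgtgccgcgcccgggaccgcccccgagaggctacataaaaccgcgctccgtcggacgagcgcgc
Zfp36, chr7:28379229-28379478, minus strand: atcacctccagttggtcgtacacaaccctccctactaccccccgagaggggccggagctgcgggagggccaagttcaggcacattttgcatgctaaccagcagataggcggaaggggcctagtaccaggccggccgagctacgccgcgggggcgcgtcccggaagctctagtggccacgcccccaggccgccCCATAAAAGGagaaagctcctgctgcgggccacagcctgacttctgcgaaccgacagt

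The cyclic AMP response element begins 166 bases upstream of the start in Btg2 and 143 bases upstream in Dusp1, and the CArG box begins 58 bases upstream in Zfp36, where it overlaps a TATA-like run. Both motifs were searched on both strands of the 250 upstream bases. Of the 20 list members 15 have a window in the table. A cyclic AMP response element was found in 3 of them (Btg2, Dusp1 and Maff) and a CArG box in 2 (Egr2 and Zfp36). A gene can have more than 1 window. Of the 21 windows of these members 3 held the first motif and 5, from 2 genes, the second. Of all 32851 windows 1.55% held the first and 1.47% the second. These matches describe the letters and say nothing of binding in these cultures.

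Among the AP-1 subunits, Junb (GENCODE M21, mm10, chr8:84974484-84978718) had 34.8, 29.2 and 33.1 CPM in VB6 libraries, against 124, 94.96 and 107 CPM in vehicle libraries. The groups were far apart, by 3.36-fold in means (log2 -1.75 ± 0.12, adjusted p = 1.85e-10; corrected -1.24 ± 0.07, adjusted p = 1.31e-12). Fos had 50.1, 42.3 and 46.4 CPM in VB6 libraries, against 96.7, 75.5 and 101 CPM in vehicle libraries. All VB6 libraries were below all vehicle libraries (log2 -0.98 ± 0.13, adjusted p = 3.72e-06; corrected -0.81 ± 0.11). Jun fell 1.87-fold (log2 -0.90 ± 0.10; corrected -0.76 ± 0.07). Jund was called at -1.21 and, at a smaller size, -0.42 with the correction. Egr1, a zinc finger factor downstream of ERK and serum response factor, had 57.8, 47.6 and 51.6 CPM in VB6 libraries, against 126, 106 and 123 CPM in vehicle libraries. No library overlapped the other group (log2 -1.18 ± 0.16, adjusted p = 6.69e-06; corrected -1.08 ± 0.12). Ier2 had 33.5, 31.4 and 37.3 CPM in VB6 libraries, against 116, 82.5 and 97.1 CPM in vehicle libraries. That was a 2.89-fold difference in means (log2 -1.53 ± 0.11; corrected -1.03 ± 0.07). The genes whose promoters are shown, which encode feedback proteins of this response, were also called in both fits. Btg2, an antiproliferative protein, had 177, 159 and 136 CPM in VB6 libraries, against 229.8, 225 and 232 CPM in vehicle libraries. It was called at log2 -0.54 ± 0.07 and -0.58 ± 0.06 with the correction, Dusp1, a MAP kinase phosphatase, at -0.70 and -0.57, and Zfp36, which destabilises mRNAs, at -0.54 and -0.41.

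**Figure D4:**
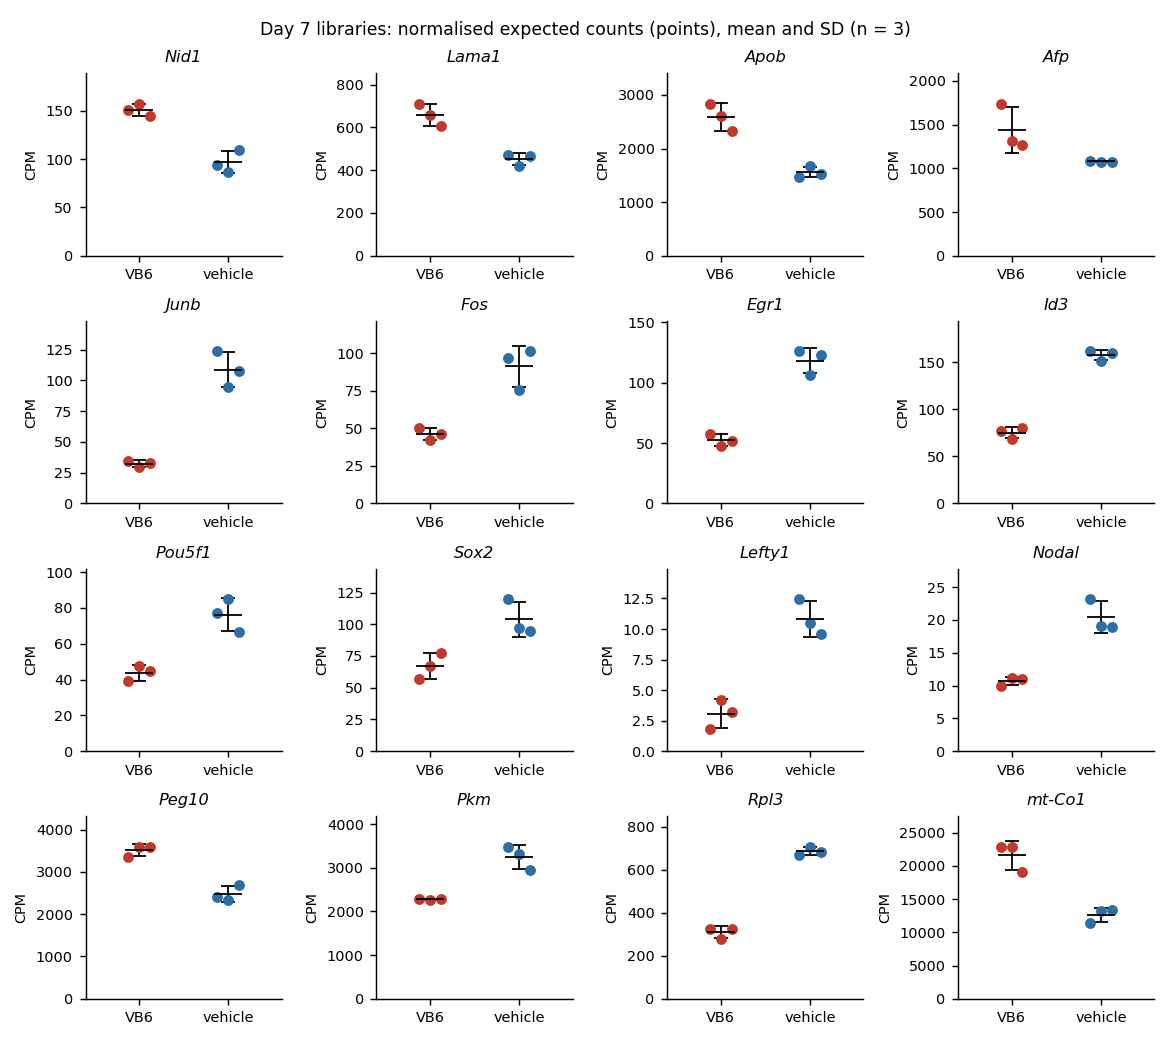
TMM-scaled CPM (y axis, from 0) of 16 genes in the 3 VB6 (left) and 3 vehicle (right) libraries at day 7, with the mean and SD (n = 3). Basement membrane and yolk sac genes (Nid1, Lama1, Apob, Afp) lie higher in VB6 libraries, and immediate early genes (Junb, Fos, Egr1), Id3, Pou5f1, Sox2, Lefty1 and Nodal lie lower, without overlap.

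The genes called in the FGF, Nodal and BMP lists were more often lower than higher, except on TPM. The shares called were 43.8% (Nodal), 26.3% (BMP) and 41.2% (FGF), beside 36.5% of all genes. With the correction the BMP share was 26.3% and the FGF share 35.3%, and 8 of the 16 Nodal genes were called, beside 25.9% of all genes. The BMP shares thus lie below or near those of all genes, and the FGF and Nodal shares without the correction lie near theirs. Directions are given for the genes called, not for the pathways. Nodal, the TGF-beta family ligand of mesendoderm, had 9.94, 11.1 and 10.996 CPM in VB6 libraries, against 23.2, 19.1 and 18.9 CPM in vehicle libraries. The VB6 libraries did not overlap the vehicle libraries (log2 -0.93 ± 0.11, adjusted p = 8.71e-07; corrected -0.73 ± 0.08). Lefty1, an inhibitor of Nodal and its direct target, had 1.81, 4.16 and 3.24 CPM in VB6 libraries, against 12.5, 10.5 and 9.59 CPM in vehicle libraries. This 3.53-fold fall rested on low counts (log2 -1.81 ± 0.19, adjusted p = 1.22e-07; corrected -1.30 ± 0.17). Over the 16 genes of the Nodal and activin list 2 were higher and 5 lower, and 3 higher and 5 lower with the correction, while on TPM 5 were higher and 3 lower. Smad2, a signal transducer of that pathway, was among the higher ones (0.40 and 0.18), but with the correction not without VB6 replicate 2 (0.15), vehicle replicate 1 (0.16) or vehicle replicate 2 (0.17). Id3 and Id1, helix-loop-helix proteins induced by BMP signalling, were called lower. Id3 had 76.6, 68.6 and 80.5 CPM in VB6 libraries, against 162, 151 and 159.9 CPM in vehicle libraries. Those levels differed by 2.10-fold (log2 -1.07 ± 0.07, adjusted p = 9.04e-11; corrected -0.68 ± 0.06). Id1 was called at -0.89 and -0.42. Of 19 BMP genes 0 were higher and 5 lower, and 1 higher and 4 lower with the correction, though on TPM 5 were higher and 2 lower. Of 17 FGF and ERK feedback genes 2 were higher and 5 lower, and 1 higher and 5 lower with the correction, while on TPM 5 were higher and 1 lower. Spry2 and Dusp6, inhibitors that ERK signalling induces, were called lower at -0.54 and -0.33 (-0.67 and -0.41 corrected).

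The enzymes of the series' question, glycolysis and lactate, were mostly lower where called on CPM but not on TPM. Of 25 genes 3 were higher and 13 lower (median -0.19), and 3 higher and 7 lower with the correction (median -0.07), whereas on TPM 8 were higher and 4 lower. The glycolysis shares called were 64% and, with the correction, 40%, beside 36.5% and 25.9% over all genes. Pkm, pyruvate kinase, had 2277, 2260.0 and 2287 CPM in VB6 libraries, against 3487, 3309 and 2943 CPM in vehicle libraries. Every VB6 library was below every vehicle library (log2 -0.51 ± 0.06, adjusted p = 1.12e-06; corrected -0.36 ± 0.04, adjusted p = 1.49e-06). Tpi1, triose phosphate isomerase, and Pfkl, a phosphofructokinase subunit, were called lower in both fits (-0.53 and -0.49, corrected -0.30 and -0.32). Ldha, which makes lactate, had 1507, 1439 and 1479.7 CPM in VB6 libraries, against 1738, 1705 and 1598 CPM in vehicle libraries. It was called lower at -0.19 ± 0.05 without the correction and not called with it (-0.03 ± 0.04), and on TPM it was called higher (0.23). Hk2, hexokinase, and Pfkp, another phosphofructokinase subunit, were called in neither fit. Slc2a1, the glucose transporter GLUT1, was called lower (-0.19) and Slc16a1, a lactate and pyruvate transporter, higher (0.34), and neither was called with the correction (-0.07 and 0.04). Slc2a1 also lost its call without VB6 replicate 1 (-0.18) or vehicle replicate 1 (-0.14). Eno1b had the smallest p of the list (-0.74 and -0.54) but is a near copy of Eno1, so its counts are uncertain. Among 18 genes of histone lactylation and acyl transfer 4 were higher and 5 lower, and 0 higher and 3 lower with the correction, while on TPM 8 were higher and 0 lower. Their shares called were 50% and, with the correction, 16.7%, which is below the 25.9% of all genes in that fit. Ep300, the acetyltransferase p300, was called higher without the correction (0.21) and not with it (0.06). Aars1, an alanyl-tRNA synthetase reported to transfer lactate to proteins, was called lower in both (-0.23 and -0.24), but not without vehicle replicate 1 (-0.17).

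Genes that take up, convert or bind vitamin B6 were called in both directions. Pdxk, pyridoxal kinase, had 19.04, 21.1 and 18.1 CPM in VB6 libraries, against 19.4, 22.6 and 20.2 CPM in vehicle libraries. Its groups overlapped and it was not called (-0.09 ± 0.08; corrected -0.06 ± 0.08). Of 11 tested genes of that list 4 were higher and 1 lower, and 3 higher and 1 lower with the correction, shares of 45.5% and 36.4% beside the 36.5% and 25.9% called over all genes. Plpbp, which binds pyridoxal phosphate, was called higher in both fits (0.27 and 0.17), but with the correction not without any 1 of 4 libraries (0.09 to 0.17). Of 37 tested enzymes that use pyridoxal phosphate 4 were higher and 8 lower, and 3 higher and 7 lower with the correction, shares of 32.4% and 27.0% that lie near those of all genes. On TPM 15 of these enzymes were higher and 3 lower. Bcat2, a branched-chain aminotransferase, was called lower (-0.52 and -0.28), and Psat1 of serine synthesis (0.29 and 0.18) and Sgpl1, sphingosine phosphate lyase (0.32 and 0.24), higher. Psat1 lost its corrected call without VB6 replicate 1 (0.10) or vehicle replicate 1 (0.17).

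Cytosolic ribosomal protein genes were lower almost without exception. Of 40 on the list 0 were higher and 39 lower (median -0.77), and 0 higher and 34 lower with the correction (median -0.33). These genes are short, and their share of counts was as low in vehicle libraries at day 5, the other group with short fragments, where 39 of the 40 were called higher in VB6 cultures (31.2% of all genes were called higher and 25.5% lower at day 5, 56.7% in all). Rpl3 had 326, 278 and 324 CPM in VB6 libraries, against 670.4, 708 and 685 CPM in vehicle libraries. Again every VB6 library was lower (log2 -1.15 ± 0.06, adjusted p = 9.40e-12; corrected -0.92 ± 0.05, adjusted p = 8.70e-13). At day 5 its log2 fold change was 1.25 ± 0.06 (corrected 0.87 ± 0.05), of the opposite sign. Most of these genes have processed pseudogenes, and the labels do not say how reads were shared among them. Nuclear genes for subunits of oxidative phosphorylation followed the same pattern, with 0 higher and 34 lower of 38 (median -0.55), and 3 higher and 22 lower with the correction (median -0.20). Uqcrq of complex III was called at -1.05 and -0.54, whereas Atp5f1d of ATP synthase (-0.70) was not called with the correction (-0.08), except without VB6 replicate 1 (-0.14). The genes of the mitochondrial genome itself had 6 higher and 3 lower of 13 in either fit. mt-Co1, the core subunit of cytochrome c oxidase, had 22801, 22882 and 19078 CPM in VB6 libraries, against 11395, 13126 and 13379.5 CPM in vehicle libraries. Every VB6 library was higher (log2 0.77 ± 0.08; corrected 0.59 ± 0.04). mt-Co1 made up most of the sum over the list, 28779 to 33790 CPM in VB6 libraries and 18739 to 22031 CPM in vehicle libraries. Ribosome biogenesis factors had 0 higher and 14 lower of 24, and 0 higher and 20 lower with the correction, while on TPM 10 were higher and 6 lower. Fbl, the rRNA methyltransferase fibrillarin, had 110.0, 110.3 and 117 CPM in VB6 libraries, against 182, 217 and 186 CPM in vehicle libraries. All VB6 libraries were lower (log2 -0.79 ± 0.07; corrected -0.44 ± 0.06). Shares called were 97.5% (ribosomal protein), 89.5% (nuclear oxidative phosphorylation), 69.2% (mitochondrial genome) and 58.3% (ribosome biogenesis), beside 36.5% of all genes. With the correction they were 85%, 65.8%, 69.2% and 83.3% in the same order, beside 25.9% of all genes. The part of fragment length in these results was not tested beyond the correction.

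Antigen presentation and interferon-related genes were mostly lower where called. Of 22 tested 1 was higher and 14 lower (median -0.47), and 2 higher and 10 lower with the correction (median -0.30). The shares called were 68.2% and 54.5%, beside 36.5% and 25.9% over all genes. Bst2, an interferon-induced membrane protein, had 50.4, 51.6 and 49.4 CPM in VB6 libraries, against 108, 147 and 115 CPM in vehicle libraries. VB6 and vehicle libraries were fully separate (log2 -1.29 ± 0.10, adjusted p = 2.78e-09; corrected -0.69 ± 0.09). Psmb10, an immunoproteasome subunit, and Tap2, the peptide transporter, were called lower at -1.56 and -1.16 (-0.96 and -0.93 corrected). The classical interferon-stimulated genes Ifit1 and Ifit3 stayed near or below 1 CPM and were not called. At day 5, when the vehicle libraries had the short fragments, the list had 13 higher and 1 lower (median 0.80). With the correction it had 8 higher and 0 lower (median 0.25). Over all genes 31.2% were called higher and 25.5% lower at day 5, and 18.3% and 17.2% with the correction. The part of fragment length in this change of sign was not tested beyond the correction.

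Imprinted genes that govern growth of the embryo and placenta were higher where called, with 1 exception. Of 22 tested 11 were higher and 1 lower (median 0.28), and 13 higher and 0 lower with the correction (median 0.26), and on TPM the median was 0.31 above that of all genes. The shares called were 54.5% and, with the correction, 59.1%, beside 36.5% and 25.9% over all genes. Zim1, a zinc finger gene, had 59.9, 51.5 and 60.1 CPM in VB6 libraries, against 27.2, 26.1 and 33.8 CPM in vehicle libraries. The levels differed by 1.97-fold (log2 0.98 ± 0.13, adjusted p = 3.12e-06; corrected 0.68 ± 0.12). Peg10, needed for the placenta, had 3360.4, 3598 and 3589 CPM in VB6 libraries, against 2405, 2342 and 2690.0 CPM in vehicle libraries. Each VB6 library was above each vehicle library (log2 0.50 ± 0.07; corrected 0.27 ± 0.06). Igf2, the fetal growth factor, was called at 0.34 and 0.45, Mest at 0.52 and 0.43, and Plagl1, a regulator of other imprinted genes, at 0.98 and 0.96. Airn overlaps Igf2r on the opposite strand, so their counts (log2 0.63 and 0.60 for Airn, 0.25 and 0.16 for Igf2r) cannot be told apart where strand was not used. Phlda2, the member called lower, lost its call with the correction (-0.48 and 0.19), where it was called higher without VB6 replicate 2 (0.31).

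Lysosome genes had 8 higher and 3 lower of 22 (median 0.14), and 13 higher and 2 lower with the correction (median 0.18). Those were shares of 50% and 68.2%, beside 36.5% and 25.9% over all genes. Lipa, the lysosomal acid lipase, had 89.7, 83.2 and 77.3 CPM in VB6 libraries, against 53.7, 57.8 and 56.7 CPM in vehicle libraries. All 3 VB6 libraries were higher (log2 0.57 ± 0.07; corrected 0.35 ± 0.06). Lamp1, a lysosomal membrane protein, was called at 0.35 (0.34 corrected). Hypoxia-responsive genes outside glycolysis had 8 higher and 2 lower of 18 in either fit, a share called of 55.6%. P4ha1, a collagen prolyl hydroxylase, rose (0.49 and 0.33) and Ddit4 (-0.66 and -0.34) and Higd1a (-1.04 and -1.05) fell. Ddit4 lost its corrected call without VB6 replicate 3 or vehicle replicate 2 (-0.28 in both cases).

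Genes of the cell cycle and of protein folding moved in both directions. Shares called were 58.1% (cell cycle), 57.1% (heat shock), 70.6% (endoplasmic reticulum stress) and 53.3% (BCL2 family), beside 36.5% of all genes. With the correction they were 54.8%, 42.9%, 41.2% and 46.7% in the same order, beside 25.9% of all genes. Of 31 cell cycle genes 6 were higher and 12 lower, and 5 higher and 12 lower with the correction, while on TPM 16 were higher and 2 lower. Cdc20, the activator of the anaphase-promoting complex, had 183, 181 and 178 CPM in VB6 libraries, against 280.5, 275 and 256 CPM in vehicle libraries. The VB6 libraries were all lower (log2 -0.58 ± 0.06; corrected -0.37 ± 0.04). Ccnd2, cyclin D2, rose (0.55 and 0.44). Of 14 heat shock chaperones 2 were higher and 6 lower, and 0 higher and 6 lower with the correction, while on TPM 6 were higher and 2 lower. Hspe1, the mitochondrial co-chaperonin, was called lower (-0.72 and -0.42). Of 17 genes of endoplasmic reticulum stress 8 were higher and 4 lower, and 5 higher and 2 lower with the correction. Pdia3, a disulfide isomerase, rose (0.35 and 0.21) and Manf, a secreted stress protein, fell (-0.58 and -0.32). Among 15 genes of the BCL2 family 1 was higher and 7 lower, and 0 higher and 7 lower with the correction, while on TPM 3 were higher and 4 lower. Bax, a mediator of apoptosis, had 54.2, 53.3 and 58.1 CPM in VB6 libraries, against 96.7, 107 and 94.6 CPM in vehicle libraries. Its groups did not overlap, and the corrected value was smaller (log2 -0.85 ± 0.07; corrected -0.23 ± 0.06). The corrected call was lost without vehicle replicate 2 (-0.17).

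Among named protein-coding genes with at least 5 CPM in the higher group, no overlap between groups and a call in both fits where a corrected value exists, the 12 highest log2 fold changes included several membrane and matrix proteins. Postn, the matricellular protein periostin, had 23.98, 29.1 and 38.1 CPM in VB6 libraries, against 10.8, 9.28 and 11.1 CPM in vehicle libraries. The VB6 libraries were all higher but varied (log2 1.55 ± 0.18, adjusted p = 2.45e-06; corrected 1.30 ± 0.17). Robo2, an axon guidance receptor, had 14.8, 17.8 and 22.4 CPM in VB6 libraries, against 8.36, 6.60 and 9.14 CPM in vehicle libraries. It was called at log2 1.19 ± 0.19 (corrected 0.91 ± 0.18). Igfbp5, a binding protein of insulin-like growth factors, rose 1.99-fold (log2 0.996 ± 0.17; corrected 0.88 ± 0.15). Vnn1, the enzyme pantetheinase, was called at 1.28 and 1.14, Mical2, which oxidises actin, at 1.15 and 1.10, and the type VIII collagen gene Col8a1 at 1.16 and 0.90. Flrt2 (1.01 and 0.72), a cell adhesion protein, Frem1 (0.995 and 0.77), of the matrix, Ugt2b34 (1.11 and 0.78), a glucuronosyltransferase, and Serpinb9b (1.04 and 0.82), a serine protease inhibitor, completed the named ones outside copies. With the correction, Col8a1 and Frem1 each lost their call without any 1 of 5 libraries, with values of 0.72 to 0.91 for Col8a1 and 0.63 to 0.85 for Frem1.

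The lowest values of the same rule were mostly genes with near-identical copies, whose counts are uncertain. Ftl1-ps1, a copy of the ferritin light chain gene Ftl1, had 2.77, 4.44 and 3.88 CPM in VB6 libraries, against 180.1, 134 and 145 CPM in vehicle libraries. The sum over Ftl1 and Ftl1-ps1 was also lower, at 7.53, 9.90 and 7.60 CPM in VB6 libraries and 186, 139 and 150.2 CPM in vehicle libraries. Srp54b, 1 of 3 adjacent copies on chromosome 12 (chr12:55155104-55189573), had 0.964, 0.169 and 0.159 CPM in VB6 libraries, against 37.5, 37.3 and 27.2 CPM in vehicle libraries. The sum over Srp54a, Srp54b and Srp54c was 195, 200.3 and 199.8 CPM in VB6 libraries and 156, 166 and 182 CPM in vehicle libraries, so the sum did not fall with the copy. Vehicle libraries at day 5 had Srp54b at 0.0576 to 0.702 CPM and Ftl1-ps1 at 7.27 to 10.9 CPM, against 16.7 to 20.6 CPM and 193 to 233 CPM in VB6 libraries of that day with longer fragments. Erhrt-ps, a copy of Erh, had no count in VB6 libraries and 9.80, 10.3 and 6.60 CPM in vehicle libraries, at least 48.9-fold lower against a floor of 3 counts per library. Rnaset2b, the highest value of all, rose (2.08 and 2.32), but with its copy Rnaset2a it summed to 26.5, 27.8 and 28.7 CPM in VB6 libraries and 27.97, 29.3 and 29.0 CPM in vehicle libraries. Styx-ps, Nme1nme2, Rps27rt, Rpl29 and Rps7 also belong to families of copies or overlap other genes. Exosc6 (0, 0.619 and 0.319 CPM in VB6 libraries, against 13.2, 7.94 and 8.46 CPM in vehicle libraries), an exosome subunit, and Akap17a (4.04, 3.09 and 4.62 CPM in VB6 libraries, against 20.99, 14.5 and 15.3 CPM in vehicle libraries), which had no corrected value, were the lowest outside such families, followed by Loricrin, Lefty1 and Junb. Exosc6 was also near 0 in vehicle libraries at day 5 (0 to 0.749 CPM) and had no count in ES libraries.

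Day 7 was then set beside the earlier days, whose comparisons share no library with it. At day 5 the short-fragment libraries were the vehicle ones, and most calls had the opposite sign. Of the 3524 genes higher at day 7, 148 were also higher at day 5 (4.20% of the day 7 calls and 2.51% of the day 5 calls) and 2499 were lower there. Of the 3375 genes lower at day 7, 69 were also lower at day 5 (2.04% and 1.43%) and 2833 were higher. With the correction, which called 35.4% of genes at day 5 (18.3% higher and 17.2% lower), 181 of 2197 were higher on both days and 964 opposite, and 141 of 2320 lower on both and 1380 opposite. Across genes the log2 fold changes of the 2 days had a Pearson r of -0.51 over 18901 genes, and -0.44 over 17408 with the correction, where genes are not independent replicates and share the libraries.

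**Figure D5:**
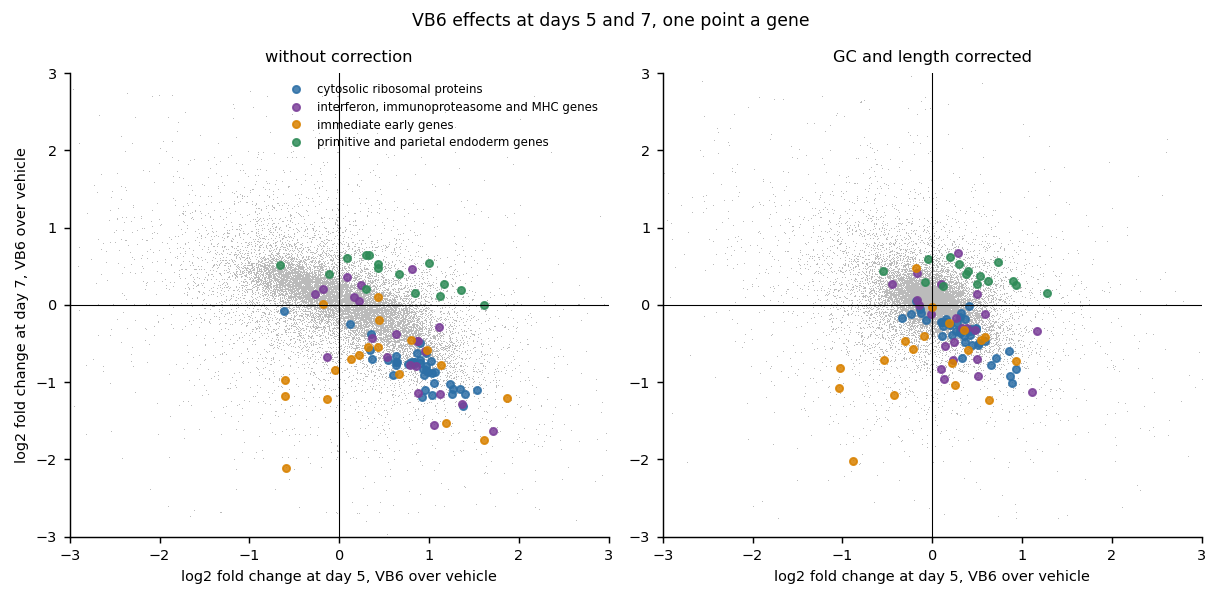
Log2 fold change of VB6 over vehicle at day 5 (x axis) and day 7 (y axis), one grey point a gene, without (left) and with (right) the GC and length correction, with 262 and 200 genes outside the axes. Ribosomal protein and interferon-related genes lie at lower right, primitive and parietal endoderm genes mostly at upper right, and immediate early genes below 0 at day 7 on either side of 0 at day 5.

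Genes called in the same direction at both days and in both fits were picked out after their values were seen. There were 55 higher and 27 lower, 0.316% and 0.155% of 17408 genes. By the conditions on names above, 51 of the first and 15 of the second can be named. Far more genes were called in opposite directions in both fits. Of those 486 were higher at day 7 and lower at day 5, and 1035 lower at day 7 and higher at day 5. Among the 55 higher on both days were Nid1, Lama1, Lamb1, Lamc1, Pdgfra, Mttp, Afp, Fga and Igf2, described above. Of these, Mttp (0.09), Afp (0.10) and Fga (0.26) lost their corrected call at day 7 without VB6 replicate 1. Afp (0.26 to 0.29) and Fga (0.47 to 0.52) also lost it without any 1 vehicle library, and Mttp without vehicle replicate 3 (0.18). Lama1 averaged 414 ± 16.9 CPM in VB6 libraries and 207 ± 26.2 CPM in vehicle libraries at day 5 (log2 0.996 ± 0.09; corrected 0.73 ± 0.07), lower than at day 7 in both groups. Nid1 averaged 58.8 ± 0.915 CPM in VB6 libraries and 47.8 ± 3.998 CPM in vehicle libraries at day 5 (log2 0.30 ± 0.07; corrected 0.29 ± 0.07). Slco2a1, a prostaglandin transporter, had log2 values of 0.92 at day 5 and 0.75 at day 7 (0.79 and 0.70 corrected), and Tfpi, an inhibitor of coagulation, 0.22 and 0.70 (0.79 and 0.47). Among the 27 lower on both days were Fos, Egr1, Fgf5 and Dusp6. Fos averaged 16.4 ± 4.49 CPM in VB6 libraries and 24.7 ± 2.40 CPM in vehicle libraries at day 5 (log2 -0.60 ± 0.15; corrected -1.03 ± 0.13). Egr1 had -0.61 at day 5 and -1.18 at day 7 (-1.04 and -1.08 corrected). Junb, by contrast, had the opposite sign at day 5 (1.61 and 0.63), as did Id3 (1.38 and 0.69) and Sox2 (1.12 and 0.99). The immediate early list as a whole did not repeat its fall at day 5. Of 19 tested 11 were higher and 2 lower there, and 9 higher and 3 lower with the correction. Over all genes 31.2% were called higher and 25.5% lower at day 5, and 18.3% and 17.2% with the correction.

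At day 3, where fragment lengths were alike, 805 genes were called (4.26%), 281 higher (1.49%) and 524 lower (2.77%). Of the genes called higher at day 7, 81 were also higher at day 3 (2.30% of the day 7 calls and 28.8% of the day 3 calls) and 91 were lower there. Of those called lower at day 7, 161 were also lower at day 3 (4.77% and 30.7%) and 78 were higher. Over all genes 18.6% were called higher and 17.9% lower at day 7. Without correction 1 gene was higher at all 3 days and 1 was lower. The lower one was the BCL2-family survival factor Mcl1 (-0.24, -0.42 and -0.15; corrected -0.20, -0.56 and -0.16). At day 7 Mcl1 lost its call without VB6 replicate 3 (-0.09) or vehicle replicate 1 (-0.13), and in the corrected fit also without vehicle replicate 2 (-0.16). The test of the difference itself, the VB6 effect at day 7 minus that at day 3, called 4360 genes (23.1%), 2206 positive (11.7%) and 2154 negative (11.4%), and 3055 (17.5%) with the correction, 1458 positive (8.38%) and 1597 negative (9.17%). Basement membrane genes were among the positive ones. Lama1 was lower in VB6 cultures at day 3 (-0.35; corrected -0.27) and higher at day 7, a difference of 0.89 ± 0.13 (adjusted p = 2.38e-05; corrected 0.82 ± 0.11). Nid1 had a difference of 0.96 ± 0.10 (corrected 0.80 ± 0.10) and Fn1 of 0.82 ± 0.09 (corrected 0.74 ± 0.06). Epas1, a hypoxia-inducible factor, averaged 68.1 ± 6.80 CPM in VB6 libraries and 43.2 ± 4.88 CPM in vehicle libraries at day 7, beside 13.8 ± 1.37 CPM in VB6 libraries and 28.97 ± 5.53 CPM in vehicle libraries at day 3. Its effect turned from lower to higher, by 1.72 ± 0.17 (adjusted p = 3.01e-07; corrected 1.63 ± 0.16). Among the 6 highest differences by the naming rule were also Zeb1, a repressor of epithelial genes (1.48 ± 0.22; corrected 1.23 ± 0.22), the calcium channel gene Ryr2 (1.54 ± 0.26; corrected 1.28 ± 0.25), Gpat3 of triglyceride synthesis (1.53 ± 0.39; corrected 1.41 ± 0.39) and the homeobox gene Meis1 (1.90 ± 0.59; corrected 1.72 ± 0.59). The 6 lowest were Erhrt-ps, Srp54b, Ftl1-ps1, Exosc6, Nme1nme2 and Rps27rt, described above. Among genes of the lists, Fos had -1.40 ± 0.24 (corrected -1.28 ± 0.22), Jun -1.25 ± 0.17 (corrected -1.20 ± 0.13) and Nes -1.34 ± 0.16 (corrected -1.37 ± 0.13). In the day 7 comparison itself, Gpat3 lost its call without VB6 replicate 1 (0.51) or 2 (0.44), or vehicle replicate 1 or 2 (0.47 each). Zeb1, Ryr2 and Meis1 lost their corrected day 7 call with some single libraries left out (smallest values 0.27, 0.23 and 0.54).

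The cultures were also placed on the log2 difference between VB6 day 3, set at 0, and VB6 day 5, set at 1. No day 7 library sets this axis. ES libraries lay at 0.201, 0.141 and 0.142 on it, above the VB6 day 3 libraries. The position therefore does not measure how far a culture had moved from stem cells. The day 7 libraries lay beyond day 5, at 1.25, 1.23 and 1.25 with VB6 and 1.27, 1.21 and 1.23 with vehicle. The groups overlapped, and the means of 1.24 ± 0.00962 with VB6 and 1.24 ± 0.0267 with vehicle (SD, n = 3 each) differed by 0.00795 (p = 0.6, exact two-sided permutation test). With the GC and length correction the VB6 libraries did not overlap the vehicle libraries, at 1.29 ± 0.00837 with VB6 and 1.25 ± 0.0112 with vehicle, a difference of 0.0418 with the smallest p the design allows (p = 0.1, exact two-sided permutation test). On an axis set by the vehicle libraries of days 3 and 5, of which those of day 5 had short fragments, the means were 1.01 ± 0.0451 with VB6 and 0.757 ± 0.0265 with vehicle, a difference of 0.257 (p = 0.1, exact two-sided permutation test).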

How the data were processed

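RNA of E14 cultures was sequenced in 21 libraries, 3 in each of 7 groups, and the VB6 and vehicle libraries of day 7 are compared here. The authors deposited expected counts, TPM and FPKM values for 78317 gene rows, made on mm10, per the submitters' processing notes. The labels name no aligner, counter or strand setting, and the extraction text in the labels also describes steps of small RNA libraries. Deposited TPM values served the per-length alternative, and deposited FPKM values with the expected counts gave effective and fragment lengths. Of the gene rows 26781, with 1.90% of counts, are not in GENCODE M21 and have no corrected value.

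Expected counts were rounded to whole numbers, which changed their sum by 0.000245%, filtered with filterByExpr over the 7 groups, scaled by TMM and tested with edgeR 4.0.16 (R 4.3.3) on all 21 libraries, so that groups share one estimate of the spread. P-values were adjusted by Benjamini-Hochberg over all genes tested. The corrected fit adds offsets from a smooth trend over GC content and effective length. Alternatives were limma 3.58.1 on log2(TPM + 1), DESeq2 1.42.0, other filters and scalings, single libraries left out, and a replicate block. The fits were also run on simulated counts, with far fewer changed genes than were called here. The trend added there came from the function that the correction uses, so that run cannot judge the correction on these data.

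Named genes are the 12 highest and 12 lowest called protein-coding genes with a mean of at least 5 CPM in the higher group, no overlap between groups and the same call with the correction where one exists, up to 5 members a list by smallest p, a fixed set of endoderm, pluripotency and glycolysis genes, the 6 highest and 6 lowest differences between days 7 and 3, and up to 4 genes a direction called alike at 3 days. Airn, Col4a1, Col4a2, Dusp1, Ier3, Igf2r, Mest, Myc, Phlda2, Plagl1, Sox7 and Zfp36 were named after their values were seen. The comparison, the lists and the rules were chosen with earlier results of these data known. Some genes that these rules name are not reported here.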

Additional observations from a re-analysis of the deposited data

Results flagged for a closer look

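The vitamin B6 effect differed between days 7 and 3 for 4360 genes by the test of that difference, the effect at day 7 minus the effect at day 3 (edgeR, adjusted p under 0.05). The genes below were picked for mention after their values were seen and are called with and without the GC and length correction. For Epas1 the difference was 1.72 ± 0.17 (SE), with an effect of 0.65 at day 7 and -1.06 at day 3. Zeb1 had a difference of 1.48 ± 0.22, with 0.63 at day 7 and -0.85 at day 3. The basement membrane and matrix genes Nid1, Lama1 and Fn1 had differences of 0.96, 0.89 and 0.82, and each was higher in VB6 cultures at day 7 and lower at day 3. Fos, Jun and Nes had differences of -1.40, -1.25 and -1.34, each lower in VB6 cultures at day 7, with positive values at day 3 of 0.42, 0.35 and 0.42. VB6 libraries had shorter fragments than vehicle libraries at day 7 and not at day 3, and the part of this in the differences was not tested beyond the correction.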

How the results depend on the processing

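For the number of genes called at day 7 (6899), DESeq2 gave 6729, edgeR with DESeq2's size factors 6898, a stricter filter 6937 and no filter 6314. A fit to the compared groups alone gave 6077 and limma on TPM 8184, so all these totals lay within 1.5 times. The genes were not all the same. Those shared with the 6899 ran from 4712 on TPM to 6826 with DESeq2's size factors. The correction gave 4517, of which 3048 were shared. Leaving out each library in turn gave 5438 to 6664 without the correction and 3481 to 4370 with it. For the difference between days 7 and 3, leaving out a library gave 3466 to 4384 genes. The VB6 and vehicle libraries of a number did not deviate together (correlations of -0.0042, 0.0781 and -0.00048), and a replicate block gave 6816 genes, or 4475 with the correction. Genes called alike at days 5 and 7 numbered 217 without the correction alone, 322 with the correction alone and 204 with DESeq2 alone, alternatives chosen after seeing the data, as was leaving out the short-fragment vehicle libraries of day 5.

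As shares of TPM, the VB6 minus vehicle difference was -7.36 percentage points for ribosomal protein genes and 1.49 for mitochondrially encoded genes. The difference in axis position was 0.257 on the vehicle axis, -0.0069 on the axis from ES to VB6 day 5, 0.0418 with the correction, and -0.0033 to 0.0227 with a library left out.

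Direction reversed on TPM for Aars1 (0.081), Ldha (0.23), Mcl1 (0.12), Pfkl (0.12) and Slc2a1 (0.073). It reversed with the correction, and with the replicate block added, for Apoa1 (0.060 and 0.058), Apoe (0.25 and 0.24), Phlda2 (0.19 and 0.19) and Tfrc (-0.079 and -0.079). The cause was not tested. With a library left out, 9 of the named genes lost their call without the correction and 19 with it. Those with it, each with its smallest value, were Afp (0.10), Apoe (0.12), Bax (-0.17), Col4a1 (0.24), Col4a2 (0.17), Col8a1 (0.72), Ddit4 (-0.28), Fga (0.26), Frem1 (0.63), Ier3 (0.35), Mcl1 (-0.09), Meis1 (0.54), Mttp (0.09), Plpbp (0.09), Psat1 (0.10), Ryr2 (0.23), Smad2 (0.15), Tfcp2l1 (0.17) and Zeb1 (0.27). Fragment length and vitamin B6 cannot be told apart at day 7, and 3 libraries a group cannot give an exact p below 0.1.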
